A study of Homo sapiens with 6 samples.

Results

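The epithelial sodium channel group comprised 7 genes, taken from the 63677 gene identifiers in the count table. They are the channel subunits SCNN1A, SCNN1B, SCNN1G and SCNN1D, the activating protease PRSS8, the kinase SGK1 and the ubiquitin ligase NEDD4L. SCNN1G was chosen by its measured values, as the gene with the largest rise under Olaparib among those called differentially expressed at a mean count of at least 20. The other 6 were chosen for their role around the same channel, to see whether SCNN1G changed alone. Beside it SGK1 rose, whereas the 95% intervals of PRSS8 and NEDD4L lay within 0.1 of zero on the log2 scale and SCNN1B was at the detection floor. SCNN1A and SCNN1D were not called, with log2 fold changes of 0.099 (95% interval 0.029 to 0.17) and 0.34 (-0.15 to 0.84).

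The RNA came from UWB1.289 cells, an ovarian carcinoma cell line that lacks functional BRCA1 and whose genotype the labels give as WT. Cells received the PARP inhibitor Olaparib or the vehicle dimethylsulfoxide (DMSO) for 24 h, with 3 samples per group. The sample labels give 4 µM Olaparib and the design text of the series gives 10 µM. All 6 samples come from this 1 line, and both groups were grown in a mixed RPMI and MEGM medium with serum and MEGM supplements, which include hydrocortisone and epidermal growth factor.

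The epithelial sodium channel carries sodium across the apical membrane of absorbing epithelia such as the collecting duct, the airway and the endometrium. The alpha (SCNN1A), beta (SCNN1B) and gamma (SCNN1G) subunits form the classical channel, and delta (SCNN1D) can replace alpha. Proteases such as furin and prostasin (PRSS8) cut channel subunits and open the channel. NEDD4L ubiquitinates the subunits and removes the channel from the membrane, and SGK1, a kinase induced by corticosteroids, phosphorylates NEDD4L and blocks this removal.

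Library totals lay between 35360458 and 39640775 counts, and the 10 most abundant genes took 6.14% to 6.43% of each library. Replicates of each group differed by more than sampling noise, with chi-square over degrees of freedom of 1.81 to 4.11, and all 6 samples were counted separately. Pairs with replicate 1 of either group had 3.35 to 4.11, against 1.81 for DMSO replicates 2 and 3 and 2.28 for Olaparib replicates 2 and 3. The treatment protocol in the labels names 3 dishes per condition, and the study's methods call the replicates independent without giving days or passages. The p-values therefore measure the spread between these samples, with the variance of each gene moderated by edgeR over all genes. Epithelial markers were abundant, with 9 of 10 past the filter on low counts and WT1, a marker of serous ovarian cells, at 8 counts in all libraries together. The summed normalized counts of 4 endothelial markers lay between 1659 and 1706 with Olaparib and between 1688 and 1804 with DMSO, with PECAM1 at 0 in every library. Of the other 3, VWF was called higher, with 67.4 ± 3.17 normalized counts with Olaparib and 41.8 ± 1.96 with DMSO (SD, n = 3 each, edgeR adjusted p = 0.0106). KDR had 97.3 ± 6.17 against 78.8 ± 1.63 (edgeR adjusted p = 0.237), and CDH5, which made up most of the sum, had 1526 ± 28.3 against 1606 ± 63.6 (edgeR adjusted p = 0.442). Sums of 5 leukocyte markers lay between 125 and 145 with Olaparib and between 106 and 129 with DMSO, and those of 5 fibroblast markers between 239 and 343 and between 279 and 317. The part of these markers in the results was not tested.

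Normalized counts below are counts scaled to a common library size by edgeR's TMM method, and levels between genes are compared per exon length and library size (reads per kilobase of exon and sequencing depth, RPKM). In these bulk samples, fewer cells expressing a gene and less RNA per cell cannot be told apart. Genes were tested with the quasi-likelihood F statistic of edgeR, and p-values were adjusted by Benjamini-Hochberg over the 21729 genes tested. A call required an adjusted p under 0.05 and a fold change above 1.2. Of all genes tested, 1.21% were called, 0.723% higher and 0.483% lower with Olaparib. Among the 6 channel genes that passed the filter of more than 10 counts in total, SCNN1G and SGK1 were called, both higher. At the adjusted p alone, which 3.36% of all genes passed, the same pair was found. Nothing is read from these counts, since they include the gene that led to the choice.

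The sequence table from RefSeq (GRCh38.p14) held promoter windows for 3 of the 7 genes: SGK1, SCNN1B and NEDD4L. Each window runs from 250 bases before to 50 bases after an annotated start. They are shown for SGK1, the regulator that rose, and for SCNN1B, the subunit gene that lies beside SCNN1G and stayed at the floor. Capitals mark GC boxes (GGGCGG or its complement CCGCCC) and the TATA letters (TATAAA or its complement TTTATA). SGK1 had 3 annotated windows, of which the most upstream (chr6:134318063-134318362, minus strand) and the most downstream (chr6:134174817-134175116, minus strand) are given, with that of SCNN1B (chr16:23302052-23302351, plus strand).
SGK1 upstream start: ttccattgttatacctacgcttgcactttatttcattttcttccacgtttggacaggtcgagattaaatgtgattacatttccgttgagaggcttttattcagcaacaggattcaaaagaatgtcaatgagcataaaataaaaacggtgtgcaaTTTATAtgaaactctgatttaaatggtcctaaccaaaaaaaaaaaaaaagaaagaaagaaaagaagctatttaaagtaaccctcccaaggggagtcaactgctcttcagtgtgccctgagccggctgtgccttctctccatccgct
SGK1 downstream start: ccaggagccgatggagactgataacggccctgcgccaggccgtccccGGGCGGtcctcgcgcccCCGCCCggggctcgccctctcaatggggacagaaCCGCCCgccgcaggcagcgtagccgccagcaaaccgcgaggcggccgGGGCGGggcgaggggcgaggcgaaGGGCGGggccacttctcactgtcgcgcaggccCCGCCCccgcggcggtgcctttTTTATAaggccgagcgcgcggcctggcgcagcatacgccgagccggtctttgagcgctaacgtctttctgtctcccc
SCNN1B start: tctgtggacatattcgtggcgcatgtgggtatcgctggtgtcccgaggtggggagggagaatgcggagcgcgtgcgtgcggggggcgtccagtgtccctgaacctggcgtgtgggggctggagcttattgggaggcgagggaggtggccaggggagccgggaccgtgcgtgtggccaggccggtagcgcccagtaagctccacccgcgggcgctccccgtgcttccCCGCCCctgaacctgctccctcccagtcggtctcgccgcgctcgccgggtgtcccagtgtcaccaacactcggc
The 2 SGK1 windows differ in composition, with 38.0% G and C in the upstream one and 73.3% in the downstream one. The downstream window held 6 GC boxes and the upstream one 0, whereas both held 1 TATA match, and SCNN1B held 1 GC box and 0 TATA matches. GC boxes were found in 45.0% and TATA letters in 11.5% of the 35116 windows of this length in the table. The corticosteroid receptor half-site AGAACA, or its complement TGTTCT, was in 14.8% of all windows, in 0 of the 3 windows printed, in the middle SGK1 window (chr6:134177812-134178111) and in 1 of the 5 NEDD4L windows. The counts are per gene, so they do not tell which SGK1 start was used.

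Among the subunits, the transcript of the alpha subunit stood far above the others. SCNN1A (ENSG00000111319, chromosome 12, 6346843 to 6377730 on GRCh38, minus strand) had a mean level of 23.7 RPKM over the 6 samples. SCNN1G had 0.176 RPKM and SCNN1D 0.154 RPKM, and their ranges over samples overlapped (0.0874 to 0.306 and 0.12 to 0.195), so these neighbours in the order did not differ beyond their spread. SCNN1B was lowest, at 0.00583 RPKM. As a share of the summed RPKM of all 4 subunits, SCNN1A made up 98.9% ± 0.265 with DMSO and 98.3% ± 0.173 with Olaparib (SD, n = 3 each). SCNN1G made up 0.481% ± 0.183 with DMSO and 0.977% ± 0.237 with Olaparib. With the length of the canonical transcript in place of all annotated exons, SCNN1A was at 44.2 RPKM, SCNN1D at 0.203 RPKM and SCNN1G at 0.176 RPKM, so the order of the last pair depends on the length used.

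**Figure D1:**
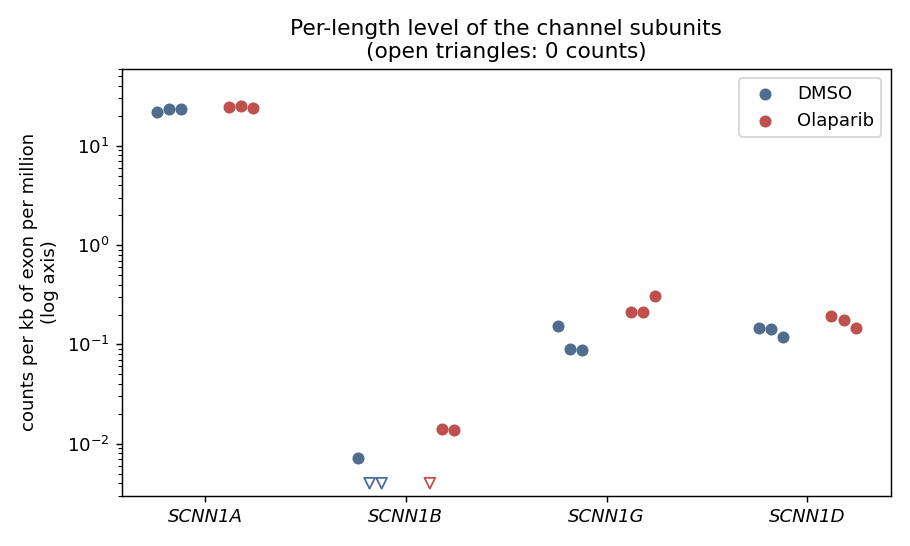
Level of each channel subunit in RPKM, on a log axis, for 3 DMSO samples (blue) and 3 Olaparib samples (red). SCNN1A lies above 20 RPKM in every sample, SCNN1G and SCNN1D lie between 0.0874 and 0.306 RPKM, and SCNN1B has 0 counts in 3 samples (open triangles).

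SCNN1G (ENSG00000166828, chromosome 16, 23182745 to 23216883, plus strand) encodes the gamma subunit. It had 27, 27 and 40 raw counts in Olaparib replicates 1 to 3 and 19, 12 and 12 in DMSO replicates 1 to 3. The normalized counts were 27.3, 27.7 and 39.8 with Olaparib and 19.9, 11.8 and 11.4 with DMSO. Every Olaparib sample lay above every DMSO sample, with Olaparib replicate 3 highest in its group and DMSO replicate 1 highest in the other. The means were 31.6 ± 7.08 and 14.3 ± 4.79 normalized counts (SD, n = 3 each), which gives a log2 fold change of 1.15 (standard error 0.27). This value chose the gene and is given as a description, with no test. With 1 sample left out at a time it lay between 0.95, without Olaparib replicate 3, and 1.44, without DMSO replicate 1.

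The depth behind SCNN1G was low. Its counts summed to 94 in the Olaparib libraries and to 43 in the DMSO libraries. For single libraries, 27 counts have an exact 95% Poisson interval of 17.8 to 39.3. The 19 counts of DMSO replicate 1 have an interval of 11.4 to 29.7, so these overlap. Such intervals cover counting error only and are no test of the groups, since the gene was chosen by their difference. The mean count of SCNN1G over the 6 libraries was 22.8, just above the minimum of 20 by which it was ranked first. Below that minimum, 10 called genes had a larger rise, and at or above it 0 did. Of the 1652 genes with mean counts between 15.2 and 34.2, 14 were called (0.847%), and 3, SCNN1G included, had a log2 fold change at least as large upward, while 2 had one as large downward. The median absolute log2 fold change of these genes was 0.2.

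**Figure D2:**
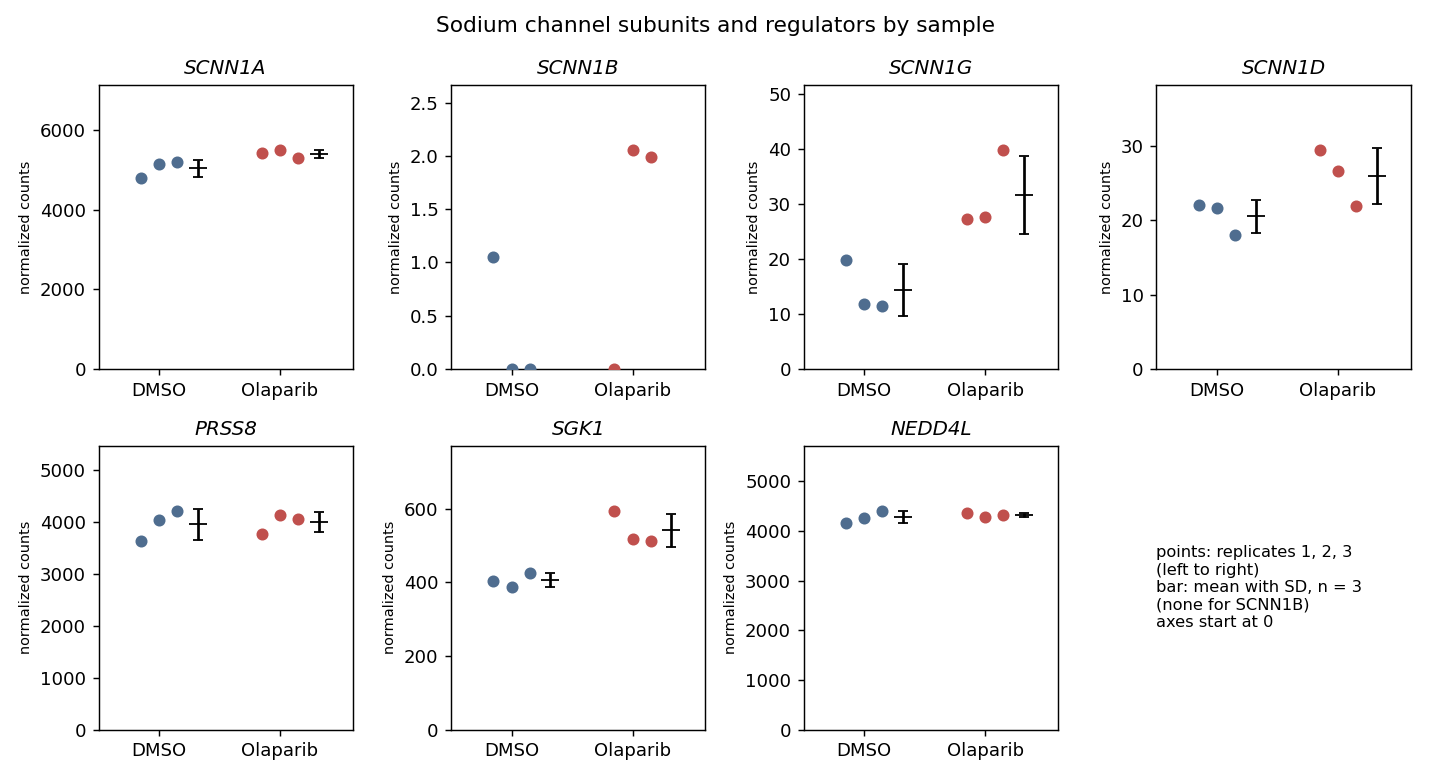
Normalized counts of the 7 genes in each of the 3 DMSO (blue) and 3 Olaparib (red) samples, with the mean and SD (n = 3) beside them except for SCNN1B, on linear axes that start at 0. The Olaparib and DMSO samples do not overlap for SCNN1A, SCNN1G and SGK1, and they overlap for SCNN1D, PRSS8 and NEDD4L.

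SCNN1A differed little between the groups. Its normalized counts were 5408, 5482 and 5292 with Olaparib and 4784, 5132 and 5189 with DMSO, so the groups did not overlap and the lowest value was that of DMSO replicate 1. Groups did not overlap for 19.3% of all genes tested. The means were 5394 ± 95.8 and 5035 ± 220 (SD, n = 3 each), which gives a log2 fold change of 0.099 (95% interval 0.029 to 0.17, edgeR adjusted p = 0.117). With the replicate number as a block the adjusted p was 0.0348 at a log2 fold change of 0.10, below the fold that a call requires. Of the exonic bases of SCNN1A, 7.18% overlap LTBR on the opposite strand.

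SCNN1B (ENSG00000168447, chromosome 16, 23278231 to 23381294, plus strand), the beta subunit, had 0, 2 and 2 counts with Olaparib and 1, 0 and 0 with DMSO. All libraries were at or under the floor of 3 counts, so a difference was not detectable at this depth. The annotated gene begins 61.3 kb downstream of SCNN1G on the same strand, and the promoter window printed above belongs to a start farther downstream.

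SCNN1D (ENSG00000162572, chromosome 1, 1280436 to 1292029, plus strand), the delta subunit, was measured at nearly the same depth as SCNN1G. It had 29.4, 26.7 and 21.9 normalized counts with Olaparib and 22.0, 21.6 and 18 with DMSO. Olaparib replicate 3, the highest sample for SCNN1G, was the lowest treated sample here and fell among the DMSO samples. The log2 fold change of SCNN1D was 0.34 (95% interval -0.15 to 0.84, edgeR adjusted p = 0.569). In fold terms the interval runs from 0.899 to 1.78, far wider than that of SCNN1A (1.02 to 1.12).

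**Figure D3:**
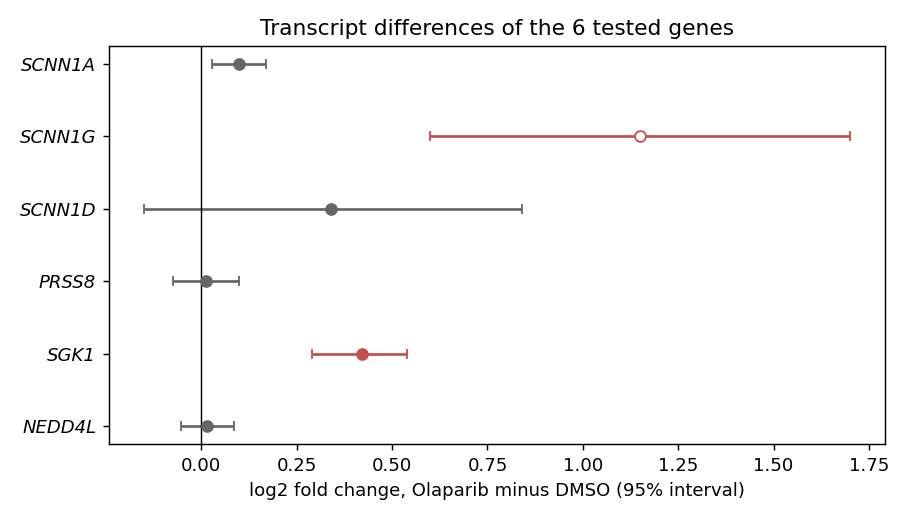
Log2 fold change, Olaparib minus DMSO, with its 95% interval from edgeR for the 6 genes tested (red: called, open circle: SCNN1G, the gene the choice started from). The value of SCNN1G chose the gene, so its interval is a description only and is not read as a test. SCNN1G (1.15) and SGK1 (0.42) lie to the right of 0, PRSS8 (0.012) and NEDD4L (0.015) lie at 0 with narrow intervals, and SCNN1D (0.34) has a wide interval that includes 0. SCNN1A (0.099) has an interval from 0.029 to 0.17, also to the right of 0, and was not called.

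PRSS8, the membrane-anchored protease prostasin, was the most abundant of the 7 transcripts per length, at 35.6 RPKM over the 6 samples and 57.7 RPKM on the canonical transcript. PRSS8 (ENSG00000052344, chromosome 16, 31131433 to 31135727, minus strand) had 3765, 4128 and 4057 normalized counts with Olaparib and 3618, 4028 and 4200 with DMSO. The groups overlapped throughout, with replicate 1 lowest in each. The log2 fold change was 0.012 (95% interval -0.075 to 0.099, edgeR adjusted p = 0.942). In fold terms the interval runs from 0.949 to 1.07. An antisense gene on the opposite strand overlaps 12% of the exonic bases of PRSS8, and the strand setting of the counting is not stated in the sources used here.

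SGK1 (ENSG00000118515, chromosome 6, 134169248 to 134318112, minus strand) was the regulator that changed. It had 593, 518 and 512 normalized counts with Olaparib and 404, 388 and 425 with DMSO. The lowest Olaparib sample was well above the highest DMSO sample, and Olaparib replicate 1 was the highest. The means were 541 ± 45.2 and 406 ± 18.3 (SD, n = 3 each), which gives a log2 fold change of 0.42 (standard error 0.062, 95% interval 0.29 to 0.54, edgeR adjusted p = 4.92e-05), or a 1.33-fold level. The adjusted p stayed under 0.05 in 13 of 13 alternative fits, between 1.03e-08 and 0.00228. With 1 sample left out at a time the log2 fold change lay between 0.35 and 0.45. The highest Olaparib sample differed between SGK1 (replicate 1) and SCNN1G (replicate 3). SGK1 had 1.27 RPKM over all annotated exons and 3.9 RPKM on the canonical transcript.

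NEDD4L (ENSG00000049759, chromosome 18, 58044226 to 58401540, plus strand) had 4363, 4271 and 4326 normalized counts with Olaparib and 4157, 4268 and 4397 with DMSO. The Olaparib samples fell inside the range of the DMSO samples. Its log2 fold change was 0.015 (95% interval -0.054 to 0.085, edgeR adjusted p = 0.894). The annotated exons of NEDD4L span 34097 bases against 8633 bases in the canonical transcript, so its level was 3.37 or 13.3 RPKM by the length used, rank 3 among the 7 genes by both.

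The wider pathway was described by 5 lists with 76 genes, of which 63 were tested. Of these, 1 was called higher and 0 lower, beside 1.21% of all genes. At an adjusted p under 0.05 with no fold threshold, 3 were higher and 0 lower, beside 3.36% of all genes tested (467 higher and 263 lower). Before adjustment, 10 genes were higher and 4 lower with a p under 0.05, beside 14.8% of all genes tested (1702 higher and 1515 lower). DESeq2 called 1 gene, again DUSP1. It gave no adjusted p for SCNN1D (mean count 23.2) or VWF (mean count 54.5), so the lack of a DESeq2 call is not read for genes at such counts. The median log2 fold change was 0.029, against -0.0042 over all genes tested.

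The proteases that cut the channel subunits, with their inhibitors, were well represented. Of the 14 genes, 9 were tested and 0 were called, whereas 2 had an adjusted p under 0.05 and 3 an unadjusted p under 0.05, all higher, and DESeq2 likewise called none. Among all genes tested, 3.36% had an adjusted and 14.8% an unadjusted p under 0.05. The median log2 fold change was 0.043. PLAU (urokinase, 274 RPKM), SPINT2 (a protease inhibitor, 109 RPKM) and ST14 (matriptase, which activates prostasin, 105 RPKM) had the highest levels, with log2 fold changes of 0.043, -0.0028 and 0.028. The differences that passed the adjusted p were those of TMPRSS4, a transmembrane serine protease, and SERPINE2, an inhibitor of serine proteases. TMPRSS4 had 1919, 1936 and 1785 normalized counts with Olaparib and 1521, 1652 and 1633 with DMSO. All treated samples were higher, and the log2 fold change was 0.23 (95% interval 0.14 to 0.32, edgeR adjusted p = 0.0014), under the fold threshold except without Olaparib replicate 3, where it was 0.26. SERPINE2 had a log2 fold change of 0.24 (edgeR adjusted p = 0.0291). With 1 sample left out its adjusted p was 0.0583 to 0.265, except 0.0244 without DMSO replicate 3, and DESeq2 gave 0.108. FURIN, which cuts alpha and gamma inside the cell, had a log2 fold change of 0.0011 (95% interval -0.063 to 0.066). TMPRSS2 and KLK1 were at 0 counts in every library, and TMPRSS3, MEP1B and ELANE had 6, 5 and 1 counts in total.

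**Figure D4:**
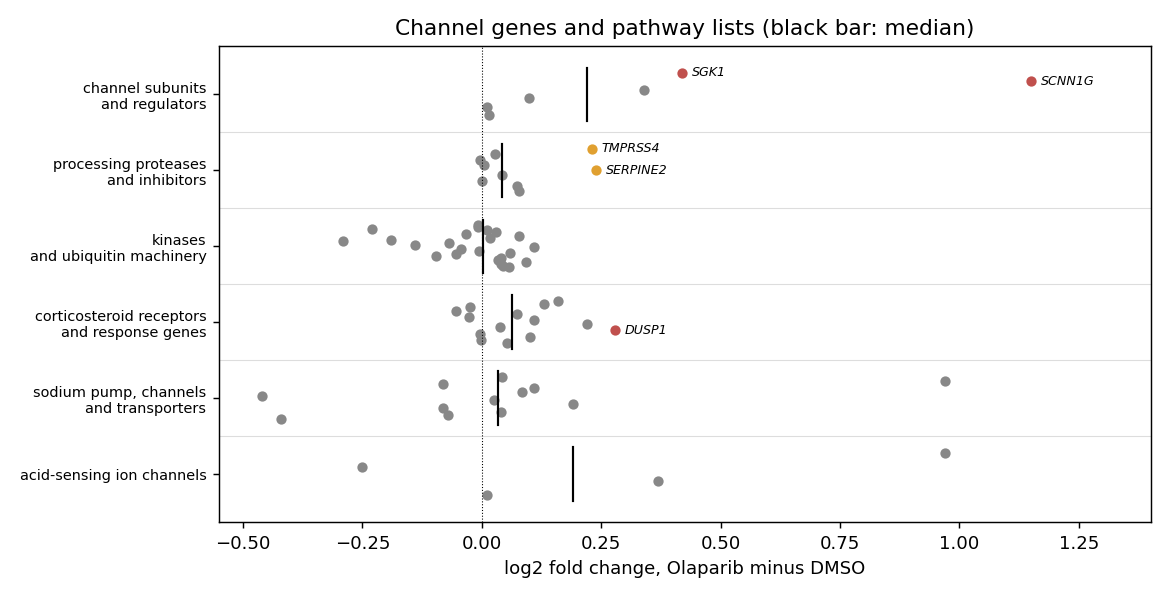
Log2 fold change, Olaparib minus DMSO, of every tested gene of the channel group and of the 5 pathway lists, with the list median as a black bar (red: called, orange: adjusted p under 0.05 only, grey: neither). SGK1, SCNN1G and DUSP1 are the called genes, and the medians of the 5 pathway lists lie between 0.0035 and 0.19.

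Kinases and the ubiquitin machinery around SGK1 and NEDD4L gave no call among 24 genes, all of them tested. No gene passed an adjusted p of 0.05 by edgeR or was called by DESeq2. Before adjustment 1 gene was higher and 3 were lower with a p under 0.05, beside 14.8% of all genes tested. Without DMSO replicate 1, WNK4, a kinase that regulates sodium transport, was called lower (log2 fold change -0.29, edgeR adjusted p = 0.0315), against -0.23 (edgeR adjusted p = 0.0964) in all samples. The list median was 0.0035 on the log2 scale, with 12 genes higher and 12 lower. YWHAE and YWHAB, 14-3-3 proteins that bind phosphorylated NEDD4L, and USP10, a deubiquitinase, had the highest levels (273, 77.9 and 32.4 RPKM). Their log2 fold changes were -0.0074, -0.0078 and 0.079. Neither relative of SGK1 was called. SGK3 had 345, 328 and 354 normalized counts with Olaparib and 402, 387 and 384 with DMSO, all treated samples lower, with a log2 fold change of -0.19 (95% interval -0.32 to -0.059, edgeR adjusted p = 0.109). SGK2 had a log2 fold change of -0.29 (edgeR adjusted p = 0.71) at 108 counts in total. NEDD4, the closest relative of NEDD4L, had a log2 fold change of -0.053 (edgeR adjusted p = 0.699).

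SGK1 is a classical corticosteroid target, so the receptors and other response genes were set beside it. Of 15 genes, 14 were tested, 1 was called higher and 0 lower, with 3 higher and 0 lower at a p under 0.05 before adjustment. Among all genes tested, 1.21% were called and 14.8% had an unadjusted p under 0.05. The median log2 fold change was 0.063. The called gene was DUSP1, a phosphatase that dephosphorylates MAP kinases and is induced by corticosteroids, growth factors and stress. DUSP1 had 1341, 1279 and 1234 normalized counts with Olaparib and 1054, 1070 and 1054 with DMSO, giving a log2 fold change of 0.28 (95% interval 0.19 to 0.37, edgeR adjusted p = 0.000152). Treated samples were higher throughout, and without Olaparib replicate 1 the log2 fold change was 0.25, under the fold threshold. No other gene of the list passed an adjusted p of 0.05 by edgeR. Of the 14 genes, 9 were higher and 5 lower. The groups did not overlap for 4, all higher, beside 19.3% of all genes tested in either direction. The log2 fold change was 0.039 for FKBP5 (95% interval -0.042 to 0.12), -0.025 for PER1 (-0.12 to 0.068) and 0.13 for TSC22D3 (0.03 to 0.22, edgeR adjusted p = 0.162). It was 0.1 for CRISPLD2 (0.0024 to 0.2, edgeR adjusted p = 0.319) and 0.11 for KLF9 (-0.025 to 0.24). ANGPTL4, DUSP1 and FKBP5 had the highest levels of the list (24.1, 15.6 and 6.42 RPKM), and ANGPTL4 had a log2 fold change of 0.052. The glucocorticoid receptor NR3C1 had a log2 fold change of 0.074 (edgeR adjusted p = 0.55) and the mineralocorticoid receptor NR3C2 one of -0.054 (edgeR adjusted p = 0.77). HSD11B2, which inactivates cortisol, had 105 ± 14 normalized counts with Olaparib and 90 ± 2.17 with DMSO (SD, n = 3 each, edgeR adjusted p = 0.455).

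Of 18 sodium pump subunits, channels and transporters that work with the channel, 12 were tested and 0 were called by edgeR. DESeq2 also called 0, with the limit at low counts given above. Before adjustment 3 were higher and 1 lower at a p under 0.05, beside 14.8% of all genes tested. ATP1B3, a beta subunit of the sodium pump, had 65.6 RPKM and a log2 fold change of 0.026, and the pump regulator FXYD5 had 27.7 RPKM and a log2 fold change of 0.084. SLC26A4, an anion exchanger, had 11.1, 10.3 and 13.9 normalized counts with Olaparib and 5.23, 4.9 and 7.58 with DMSO. The treated samples were all higher, but at 53 counts in total its log2 fold change of 0.97 had an edgeR adjusted p of 0.223. CFTR and KCNJ1, channels found with the sodium channel in kidney and airway, had 9 and 4 counts in total, and SLC9A3 and AQP2 had 0. Among the acid-sensing ion channels, which belong to the same protein family as the subunits, 4 of 5 genes were tested and 0 passed an unadjusted or adjusted p of 0.05 by edgeR. DESeq2 called none, but ASIC2, ASIC3 and ASIC4 had fewer counts than SCNN1D, for which it gave no adjusted p, so this decides nothing for them. ASIC1 was the highest, at 1.07 RPKM with a log2 fold change of 0.01. It was followed by ASIC3 at 0.115 RPKM (log2 fold change -0.25, edgeR adjusted p = 0.81) and ASIC2 at 0.0839 RPKM (log2 fold change 0.37, edgeR adjusted p = 0.583).

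The genes around SCNN1G on chromosome 16 were examined within 500 kb of either end. Of 25 genes there, 15 were tested and 1 was called, beside 1.21% of all genes tested. Their median log2 fold change was 0.014. The nearest tested genes on each side, USP31 (33.3 kb upstream, a deubiquitinase) and COG7 (172 kb downstream, a Golgi tethering subunit), had log2 fold changes of 0.037 (95% interval -0.045 to 0.12) and -0.13 (-0.23 to -0.025, edgeR adjusted p = 0.189). HS3ST2, a heparan sulfate sulfotransferase 266 kb upstream, had 0.23 (edgeR adjusted p = 0.16) and was called without Olaparib replicate 1 (0.33, edgeR adjusted p = 0.0289). Between 230 and 425 kb downstream, the named protein-coding genes GGA2, EARS2, UBFD1, NDUFAB1, PALB2 and DCTN5 had log2 fold changes from -0.016 to 0.058. The same stretch held ENSG00000259782, ENSG00000260136 and ENSG00000260751, at -0.81, 0.01 and -0.094, with 17 counts in total for the first. PLK1, a mitotic kinase 461 kb away, had 11967, 12446 and 12242 normalized counts with Olaparib and 10446, 11105 and 11107 with DMSO, giving a log2 fold change of 0.17 (edgeR adjusted p = 0.000471), under the fold threshold. The gene called was ENSG00000260482 (log2 fold change 0.34, edgeR adjusted p = 0.0473), whose exons lie wholly within those of DCTN5 on the same strand, so that its counts are uncertain. Its adjusted p was 0.13 with DESeq2, 0.0553 to 0.076 with other scalings and with filterByExpr, 0.0468 with limma voom, 0.013 with the replicate block and 0.00525 with no filter on low counts. With 1 sample left out it was 0.163, 0.128, 0.0802, 0.195 and 0.374 without Olaparib replicates 1, 2 and 3 and DMSO replicates 2 and 3. Without DMSO replicate 1 it was 0.00143 at a log2 fold change of 0.51, whereas the log2 fold change without DMSO replicate 3 was 0.21. ERN2 had 17 counts in total and a log2 fold change of 0.52 (95% interval -0.87 to 1.91).

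**Figure D5:**
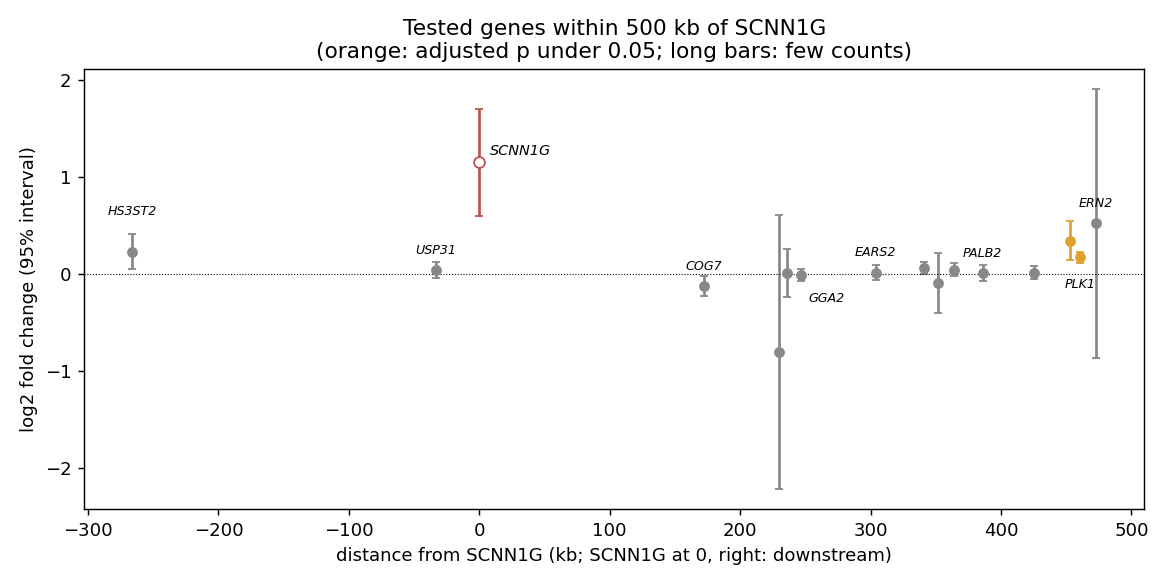
Log2 fold change, Olaparib minus DMSO, with its 95% interval from edgeR for SCNN1G (open circle) and the 15 tested genes within 500 kb, by distance in kb. The value of SCNN1G chose the gene, so its interval is a description only. The nearest neighbours lie close to 0 (USP31 0.037, COG7 -0.13), and PLK1 (0.17) and ENSG00000260482 (0.34), in orange, lie 461 and 453 kb away.

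The genes whose pattern over the 6 samples was most like that of SCNN1G were NDUFA6, SMPDL3B, CADM1, DLX5 and PHACTR4. Their Pearson's r with SCNN1G, on log2(CPM + 0.1), was 0.987, 0.985, 0.985, 0.981 and 0.981. This r does not measure the size of a difference. Their log2 fold changes were 0.058, 0.18, 0.08, 0.78 and 0.081 in the same order, and only DLX5 was called. These are the highest of 14806 genes compared, of which 34 had an r above 0.95, and with 6 samples in 2 groups an r of this size is a description only. Of the 5, DLX5, a homeobox factor measured at a similar depth, had 36.4, 32.8 and 39.8 normalized counts with Olaparib and 25.1, 19.6 and 19.0 with DMSO, with DMSO replicate 1 the highest control as for SCNN1G. For the channel genes r with SCNN1G was 0.765 for SGK1, 0.586 for SCNN1D, 0.415 for SCNN1A, -0.0164 for NEDD4L and -0.168 for PRSS8.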

How the data were processed

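Poly(A) RNA of UWB1.289 cells was sequenced in 3 Olaparib and 3 DMSO samples. The authors deposited raw read counts per gene, made by trimming with Trimmomatic, mapping to GRCh38 with STAR, marking duplicates with Picard and counting with featureCounts. Whether duplicates were removed, and the strand setting for these libraries from a stranded kit, is not given in the sources used here. Samples were matched by their description labels.

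Genes with more than 10 counts in total were kept, scaled by TMM (factors 0.9946 to 1.013) and tested with edgeR 4.0.16 (glmQLFit and glmQLFTest, without a block) in R 4.3.3, with Benjamini-Hochberg adjustment over all genes tested. Standard errors and 95% intervals came from the quasi-likelihood F. DESeq2 1.42.0, limma 3.58.1 (voom), other scalings and filters, a replicate block and leaving out each sample were alternatives. A simulated dataset was used to check the tests.

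Names, coordinates and exonic lengths came from GENCODE release 44, which held 81.9% of the identifiers listed and 96% of those tested. All 7 symbols matched. RPKM is TMM-scaled CPM per kilobase of all annotated exons, and the canonical length was added after the data were seen.

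The members and lists were chosen with earlier results of these data known. Named were all 7 genes, each list gene called, the 3 highest per list, the tested neighbours within 500 kb and the 5 genes most like SCNN1G. Among these, 1 result is not reported here. Other genes named in the text (such as TMPRSS4, SERPINE2, SGK3, FKBP5 and SLC26A4) were chosen after their values were seen.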

Additional observations from a re-analysis of the deposited data

How the results depend on the processing

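The count of called genes was 262, 141 with DESeq2 and 730 with no fold threshold, and 178 to 237 with 1 sample left out. The 7 channel genes gave 2 calls, 1 (SGK1) with DESeq2 and 1 to 2 with 1 sample left out, with SGK1 alone without Olaparib replicate 3, DMSO replicate 2 or DMSO replicate 3. The log2 fold change of SCNN1G with DESeq2 was again 1.15, and DESeq2 gave no adjusted p for SCNN1D, measured at nearly the same depth. The pathway lists gave 1 call, 3 with no fold threshold and 0 to 2 with 1 sample left out. The neighbours of SCNN1G gave 1 call, 0 with DESeq2, with DESeq2's size factors in edgeR, with upper quartile scaling and with edgeR's filterByExpr, 2 with no fold threshold, and 0 to 1 with 1 sample left out.

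SGK1 kept its direction and stayed past the threshold in 13 of 13 alternatives. PRSS8 changed sign to -0.014, -0.003 and -0.045 on the log2 scale without Olaparib replicate 2, Olaparib replicate 3 and DMSO replicate 1, and NEDD4L to -0.0022 without DMSO replicate 1. With 1 sample left out they ranged from -0.045 to 0.057 and from -0.0022 to 0.035. Same-numbered samples did not deviate together (r of deviations from the group means -0.0798, 0.109 and -0.107). With 3 samples per group this cannot settle whether the numbers pair them. With the replicate block 291 genes were called, against 262 without it. SCNN1B could be fitted only without the filter and has no main value. Depth limits SCNN1B, SCNN1G and SCNN1D.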
